A study of Mus musculus with 4 samples.

Results

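Alveolar type 1-like cells are described here as 1865 of 15189 epithelial cells from 4 single-cell libraries of mouse lung tumour suspensions, which held 29367 cell barcodes in all. The members were chosen by measured values, the levels of marker genes. Barcodes with at least 2000 unique molecular identifiers (UMIs, counts of captured transcript molecules) and at most 20% mitochondrial UMIs were kept. A cell was taken as epithelial with at least 2 UMIs of Epcam, Cdh1, Krt8, Krt18 and Cldn18 together and none of Ptprc, Cdh5 or Col1a2. An epithelial cell was a member when Rtkn2, Col4a3 and Col4a4 summed to at least 4 per 10000 of its UMIs and Lyz1 plus Retnla stayed under 5 per 10000. The cells that passed the limit on Lyz1 and Retnla but not the marker rate are the other epithelial cells, and they are the comparison throughout.

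All groups came from mice with, among their alleles, floxed Hnf4a, p53 flanked by frt sites, and CreERT2 at Rosa26 behind a stop cassette that Flp removes. Tumours were started by intubation with an adenovirus carrying FlpO under a mouse surfactant protein C promoter (Ad mSPC-FlpO). Tamoxifen or its vehicle followed 10 weeks later, and macroscopic tumours were taken 2 weeks after that, dissociated, frozen viably, and sorted as live single cells. The vehicle libraries carry KP in their titles and the tamoxifen libraries KPH, although the genotype field is the same for both, and the vehicle is ethanol in the treatment field and corn oil in the protocol. Part of each suspension was set aside ahead of bead depletion of CD45-positive and CD31-positive cells, and the remainder was sequenced after it. The groups are therefore vehicle before, vehicle after, tamoxifen before and tamoxifen after depletion, with 1 library each, and values below follow that order. The labels give neither how many animals or tumours went into a suspension nor their ages, and the portions of a treatment do not replicate each other. With 1 library per group there was no test, so intervals are exact 95% intervals that cover counting error only.

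Alveolar type 1 (AT1) cells are thin squamous cells that cover most of the gas exchange surface and share a basement membrane with the capillaries. After injury they can arise from cuboidal alveolar type 2 (AT2) cells, which make surfactant and then act as progenitors. Nkx2-1 is needed for both fates, and the YAP and TAZ coactivators with their TEAD partners are known to favour the AT1 fate. Ager, the receptor for advanced glycation end products, is the classical AT1 surface marker, and Aqp5 is an AT1 water channel that mouse type 2 cells can also carry.

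Of the genes that define the cells, Col4a3 and Col4a4 encode chains of the type IV collagen network that AT1 cells contribute to the basement membrane, and Rtkn2 is the remaining one. Col4a4 (chr1:82448423-82586849, minus strand) and Col4a3 (chr1:82586921-82722059, plus strand) lie head to head in GRCm38. The annotated genes are separated by 71 bases, which are shown because 1 short region precedes both starts. It lies at chr1:82586850-82586920 and was 69.0% G or C, with the plus strand printed 5′ to 3′ from RefSeq's GRCm38.p6.
Between Col4a4 and Col4a3: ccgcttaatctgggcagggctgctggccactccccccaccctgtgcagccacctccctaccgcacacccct

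Short motifs were searched on both strands of this stretch and of the 250 bases before the RefSeq start of the 20 leading member genes named further on, of which 18 had an entry. The TEAD core GGAATG, the NKX2-1 core CACTTG, the GC box GGGCGG and the TATAAA box were all without a match in the 71 bases. The TEAD core was present before 5 of the 18 genes (Nebl, Arhgef26, Sox5, Cyp2b10 and Pmp22), and in 12.6% of the 27025 promoters in the table. The NKX2-1 core was present before 2 of the 18 (Arhgef26 and Scnn1g), and in 11.6% of all promoters. The GC box was present before 9 of the 18 and in 32.9% of all promoters, and the TATAAA box before 1, Cav1, and in 13.0%. Windows of 250 bases are shown for Pmp22 (chr11:63128732-63128981, plus strand), as a leading gene with the TEAD core, and for Scnn1g (chr7:121734229-121734478, plus strand), as one with the NKX2-1 core. Neither window overlaps an annotated exon, and capitals mark the motifs searched, which do not overlap each other.
Pmp22: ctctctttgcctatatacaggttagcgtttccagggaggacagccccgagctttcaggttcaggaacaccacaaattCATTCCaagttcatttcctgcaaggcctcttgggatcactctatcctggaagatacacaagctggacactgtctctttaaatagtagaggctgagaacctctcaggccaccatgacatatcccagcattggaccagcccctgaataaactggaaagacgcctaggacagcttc
Scnn1g: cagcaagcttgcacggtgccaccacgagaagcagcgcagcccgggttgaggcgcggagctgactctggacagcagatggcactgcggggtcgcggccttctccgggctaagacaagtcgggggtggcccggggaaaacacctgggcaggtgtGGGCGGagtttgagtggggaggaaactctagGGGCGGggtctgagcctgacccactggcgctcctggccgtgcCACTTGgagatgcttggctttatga
In Pmp22 the core lies on the minus strand. A match is only a run of letters and says nothing of binding.

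The 4 libraries held from 6558 to 7867 barcodes and from 92644997 to 144994771 UMIs. Members numbered 97, 707, 125 and 936, or 11.1% (9.11 to 13.4), 11.1% (10.4 to 11.9), 13.6% (11.4 to 15.9) and 13.3% (12.5 to 14.1) of epithelial cells. The limit on Lyz1 and Retnla kept out 9, 39, 2 and 14 cells that passed the marker rate. Member cells were shallower than the other epithelial cells, with median UMIs of 16510, 12992, 18711 and 11743 against 26257, 20325, 27708 and 18183. No member barcode was shared between libraries. A doublet score of 0.25 or more was given to 0, 6, 0 and 10 members.

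The rate used by the rule was broad and graded. Its median was 7.54, 6.85, 11.0 and 8.09 per 10000 UMIs, and its highest value in a library ran from 62.9 to 102.8. Just inside the limit, at 4 to under 5 per 10000, there were 24, 179, 20 and 175 cells, in which Ager stood at 1184, 1489, 1425 and 1158 CPM, the counts per 1000000 UMIs. Just outside it, at 3 to under 4, there were 31, 253, 39 and 300 cells, with Ager at 1057, 1259, 1033 and 1004 CPM. Hopx stood at 146, 221, 258 and 167 CPM inside and 134, 124, 173 and 106 CPM outside, and Akap5 at 102, 91.6, 109 and 68.7 against 47.9, 48.8, 70.2 and 59.0 CPM. All 3 genes were higher just inside in every library, though not always beyond counting error. For Hopx in the first library the 134 CPM outside has an interval of 111 to 161, which holds the 146 inside. Hnf4a in the first library was the other way, at 3.57 CPM (2 UMIs) inside and 40.9 CPM outside.

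The collagen pair was seen in most members and Rtkn2 in fewer. Col4a3 and Col4a4 were both detected in 90.7%, 87.0%, 90.4% and 82.3% of members, and Rtkn2 in 61.9%, 56.6%, 79.2% and 66.5%. All 3 were detected together in 55.7%, 49.8%, 71.2% and 55.1%. In summed members Rtkn2 was counted at 477, 254, 523 and 410 CPM, Col4a3 at 531, 394, 472 and 421, and Col4a4 at 481, 307, 400 and 300. These values are what chose the cells. Between 6 and 118 members of a library had under 5 UMIs of the 3 genes, so their rate is imprecise.

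Ager and Aqp5, which the rule did not use, stood higher in members than in the other epithelial cells of every library. Ager (chr17:34597862-34600936, plus strand) was counted at 2447, 2419, 2664 and 2144 CPM in members and at 593, 749, 648 and 706 CPM in the other cells. The lowest member library lay above the highest library of the other cells, with log2 ratios of 2.04, 1.69, 2.04 and 1.60, and counting intervals of 1.67 to 1.71 and 1.58 to 1.62 for those after depletion. Log2 ratios here and below carry a pseudocount of 1 CPM. After every cell was thinned to 2000 UMIs, Ager was seen in 82.5%, 86.1%, 83.2% and 83.0% of members, in 56.4%, 64.0%, 53.4% and 63.3% of other epithelial cells, and in 1.1%, 4.44%, 0% and 3.70% of endothelial cells. The 0% is 0 of 94 cells, which allows up to 3.19%. Unthinned, the member shares were 90.7%, 96.5%, 96.0% and 94.1%. Median UMIs of the endothelial cells, which should lack Ager, were 12314, 8928, 9274.5 and 6768.5. Ager was thus well above background in both epithelial groups, and it is not confined to the members. Aqp5 was counted at 671, 755, 510 and 451 CPM in members against 282, 374, 204 and 236 CPM, with log2 ratios of 1.25, 1.01, 1.32 and 0.93. The Lyz1-high epithelial cells, which the limit on Lyz1 and Retnla set apart, had Aqp5 at 500.2, 506, 437 and 536 CPM. After thinning, Aqp5 was seen in 59.8%, 61.7%, 49.6% and 45.1% of members and in 59.5%, 55.4%, 56.8% and 59.3% of Lyz1-high cells, so it did not set the members apart from them. Ager stood at 707, 786, 632 and 765 CPM in the Lyz1-high cells, below the members, and was seen there in 69.8%, 73.2%, 59.1% and 70.7% of cells after thinning.

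**Figure D1:**
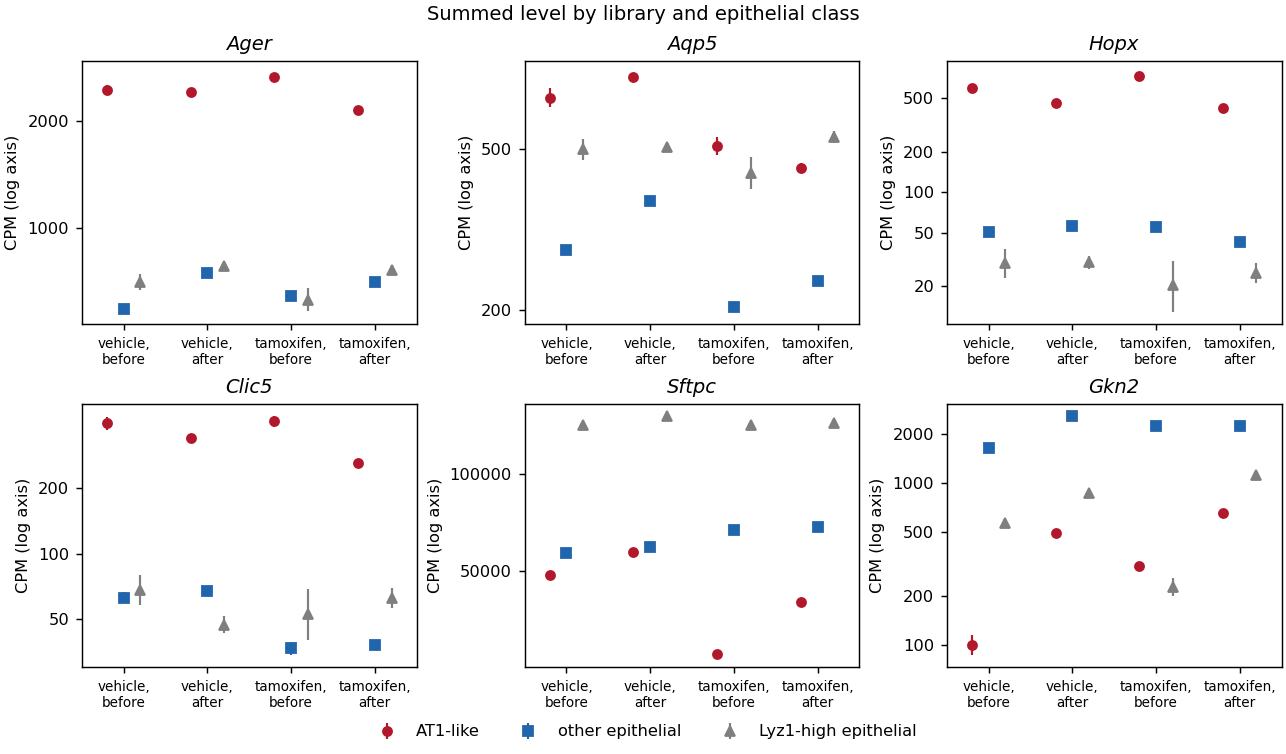
Summed level of 6 genes in CPM (log axes that differ between panels) by library for AT1-like cells, other epithelial cells and Lyz1-high epithelial cells, with exact Poisson 95% intervals for counting error. Ager, Hopx and Clic5 are highest in AT1-like cells in all 4 libraries, Gkn2 is lower there than in the other epithelial cells, and Sftpc lies at or below the level of the other cells.

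Other markers of AT1 structure and barrier function were higher too, with some exceptions. Of 23 genes of the list with enough UMIs, 14 were at least 2-fold higher in members in all 4 libraries and 22 were above 0 in all 4. Over all 9429 genes compared, 164 were at least 2-fold higher, or 1.74%, and 102 lower, or 1.08%. The rule was applied to this contrast, so these counts describe the cells and nothing is read from the difference. The share of all genes above or below 0 in all 4 libraries was not counted. Counts of list genes on 1 side of 0, here and below, are therefore descriptions only. The list's median log2 ratio was 1.88, 1.29, 2.05 and 1.61, and that of all genes was 0.03, 0.06, 0.11 and 0.07. Scaling by trimmed means moved the all-gene median to -0.06, -0.03, -0.05 and -0.03, and the list's median to 1.79, 1.19, 1.89 and 1.52.

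Hopx, a homeodomain-only cofactor that marks AT1 cells, was counted at 594, 463, 733 and 422 CPM in members against 50.2, 56.1, 55.3 and 42.7 in the other cells, with log2 ratios of 3.54, 3.02, 3.71 and 3.27. Akap5, which anchors protein kinase A at membranes, was at 289, 214, 292 and 209 CPM against 16.5, 18.0, 18.5 and 16.6, with ratios of 4.05, 3.5, 3.91 and 3.58. Clic5, a chloride intracellular channel family protein, was at 398, 342, 406 and 261 CPM against 62.9, 67.3, 36.7 and 38.2. The groups do not overlap in any of these 3 genes, each chosen as at least 2-fold higher in all 4 libraries. How many of all genes do not overlap was not counted. Such statements here and below, for classes or treatments, only describe the named genes. Cav1, the coat protein of caveolae, had a lower level, at 60.1, 46.9, 65.9 and 41.3 CPM against 8.50, 8.25, 6.20 and 7.91.

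The epithelial sodium channel subunits Scnn1b and Scnn1g, which serve fluid clearance from the alveolus, were both among the leading genes. Scnn1b was counted at 45.4, 31.7, 52.0 and 44.2 CPM against 7.33, 5.43, 6.85 and 6.47. Scnn1g was counted at 57.6, 34.4, 38.2 and 39.7 CPM against 3.84, 3.65, 2.67 and 3.60. Limch1, a regulator of actomyosin contraction, was at 512, 281, 303 and 275 CPM against 50.7, 42.4, 40.7 and 39.8. Pdpn, the mucin-type surface protein podoplanin, missed the size rule after depletion in the tamoxifen pair, with ratios of 1.53, 1.14, 1.02 and 0.75. Vegfa, which AT1 cells supply to capillaries, had ratios of 0.98, 0.79, 1.02 and 0.83, and the keratin gene Krt7 of 0.37, 0.21, 0.63 and 0.02. Cldn3, a claudin usually stronger in type 2 cells, was the 1 gene of the list below 0 throughout, at -0.24, -0.16, -0.12 and -0.22.

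Igfbp2, a marker of fully differentiated AT1 cells, was nearly absent. It gave 0, 2, 2 and 13 UMIs in members, and the first count allows up to 1.53 CPM. Of the label's markers outside the rule, Ager was highest in members among the 3 epithelial classes, and Aqp5 was shared with Lyz1-high cells. Of the AT1 list, Hopx was also highest in members, and Igfbp2 was nearly absent.

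**Figure D2:**
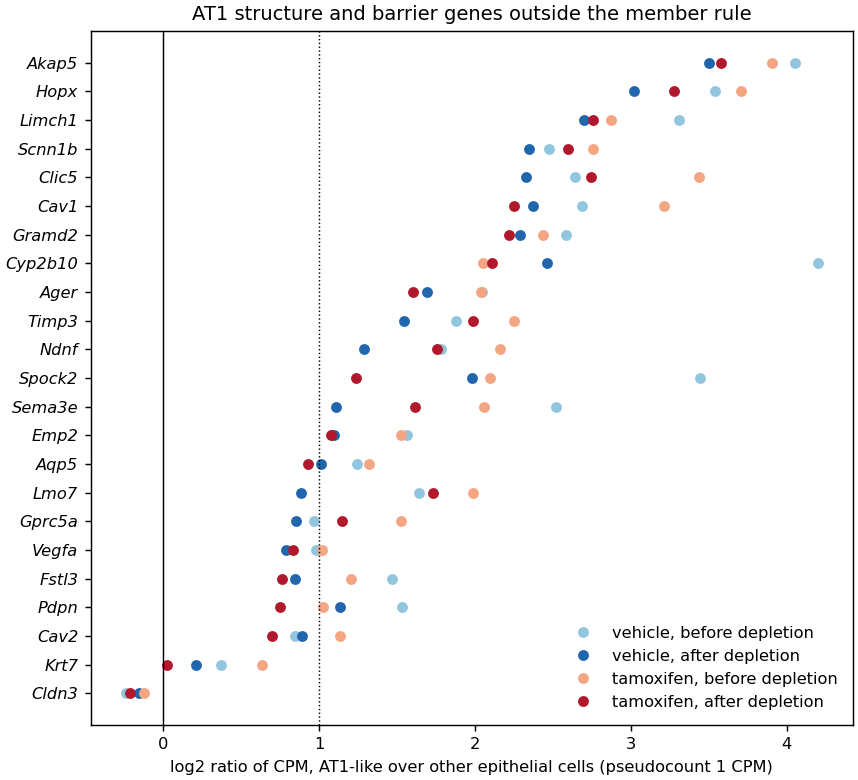
Log2 ratio of CPM in AT1-like over other epithelial cells (x axis, pseudocount 1 CPM) for 23 AT1 structure and barrier genes outside the rule, with 1 point per library. Points right of the dotted line are at least 2-fold higher, which holds in all 4 libraries for the 14 genes from Akap5 down to Emp2, and Cldn3 is left of 0 in all 4.

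Basement membrane and integrin genes were raised less, and unevenly. Of 18 genes compared, 3 were at least 2-fold higher in all 4 libraries and 16 were above 0 in all 4, with medians of 0.87, 0.46, 0.63 and 0.48. Lama3, the alpha chain of laminin 332, was at 147, 70.4, 101 and 81.0 CPM in members against 32.7, 29.7, 31.0 and 34.5. Itgb6, whose integrin activates latent TGF-beta, was at 130, 110, 178 and 114 CPM against 29.6, 29.9, 32.2 and 33.9. Npnt, the matrix ligand nephronectin, was at 286, 176, 195 and 175 CPM against 73.0, 63.1, 75.8 and 70.0. In each of these 3, which are the ones past 2-fold, every member library was above every library of the other cells. Col4a5, the partner chain of Col4a3 and Col4a4, was at 82.1, 68.3, 103 and 83.1 CPM against 32.0, 34.9, 35.8 and 38.3. Itga6 and Itgb4, the hemidesmosomal integrin pair, were below 0 throughout, Itga6 at -0.88, -0.88, -0.77 and -0.65, and Itgb4 at -0.67, -0.70, -0.29 and -0.48.

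The 20 genes with the largest ratios, ranked by the value nearest 0 over the libraries, held 8 of the AT1 list. They were Akap5, Hopx, Limch1, Scnn1b, Clic5, Cav1, Gramd2 and Cyp2b10. The remainder held secreted and matrix proteins, with the guidance ligand Sema3a at 242, 201, 284 and 233 CPM against 24.6, 25.7, 21.6 and 21.9. Fbln5, which assembles elastic fibres, was at 162, 108, 121 and 100 CPM against 9.41, 12.7, 12.1 and 12.6. Pmp22, a tetraspan membrane protein, was at 44.3, 35.4, 44.5 and 31.5 CPM against 3.19, 3.47, 2.11 and 3.13. The member range lies far above the other cells in all 3, which were ranked by this ratio. The actin-linked Nebl and the guanine nucleotide exchange factor Arhgef26 had ratios between 2.06 and 2.93, and the transcription factor Sox5 between 2.51 and 2.93. Sec14l3, Scnn1g, Mcam, Sh3rf3, Rnf150 and Adamtsl1 complete the 20, with ratios from 2.07 to 3.70.

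Genes of the YAP, TAZ and TEAD pathway leaned the same way. Of 10 compared, 9 were above 0 in all 4 libraries, with medians of 1.11, 0.89, 1.27 and 0.98, and 1, the angiomotin-like Amotl2, was past 2-fold in all 4. Amotl2 was at 61.2, 45.4, 65.1 and 47.6 CPM against 23.3, 17.8, 22.8 and 22.2. Wwtr1, which encodes TAZ, was at 323, 255, 250 and 255 CPM against 142, 129, 110 and 122, and Yap1 had ratios of 0.24, 0.22, 0.42 and 0.29. The secreted target Ccn2 was at 198, 124, 126 and 77.5 CPM against 59.5, 35.9, 15.4 and 41.4. Axl was the gene below 0.

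Surfactant and other AT2 genes were not lost from the members. Sftpc, the surfactant protein C gene, was counted at 48569, 57144, 27733 and 40267 CPM in members against 57047, 59428, 66876 and 68553 CPM in the other cells. The vehicle libraries differed little and those labelled tamoxifen more, with log2 ratios of -0.23, -0.06, -1.27 and -0.77. Free RNA contributes to such counts, and after thinning Sftpc was seen in 35.2%, 91.1%, 41.5% and 96.3% of endothelial cells, at a summed 222, 1374, 252 and 1455 CPM. The member level was far above that, while the share of cells with a UMI after depletion, 97.9% and 98.0%, reads as background. None of the 16 AT2 genes was past 2-fold in all 4 libraries, and 6 were below 0 in all 4. The list's medians were -0.29, 0.03, -1.21 and -0.54, and the second was -0.06 with trimmed-mean scaling.

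Among lung lineage regulators Nkx2-1 was higher in members and Cebpa and Sox9 lower, each by under 2-fold in at least 1 library. Nkx2-1 was at 400, 318, 415 and 331 CPM against 244, 195, 240 and 214, with ratios of 0.71, 0.70, 0.79 and 0.63. Cebpa, a transcription factor of the AT2 programme, was at 93.8, 81.2, 68.5 and 73.3 CPM against 172, 136, 154 and 128. Sox9, a distal progenitor factor, was at 28.0, 27.7, 21.7 and 26.3 CPM against 60.9, 53.8, 57.5 and 65.6. In each of these 3 genes the groups do not overlap. Foxa1, Foxa2, Gata6 and Klf5 lay between -0.13 and 0.66.

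Gastrointestinal and hepatic genes, which the other epithelial cells expressed, were mostly lower in members. Of 7 gastrointestinal genes compared, 5 were at least 2-fold lower in all 4 libraries (Gkn2, Agr2, Ctse, Tff1 and Phgr1), and of 5 hepatic genes 4 were (Alb, Apoa1, Rbp4 and Trf). Apob, the remaining hepatic gene, went both ways, with ratios of -0.78 and -1.81 in the vehicle libraries and 1.99 and 1.59 in those labelled tamoxifen. Agr2, Tff1, Alb and Apoa1 had under 20 member UMIs in at least 1 library and were compared there through their level in the other cells. The counts of lower genes are thus partly set by that minimum and are descriptions only. The lists held 16 and 19 genes, and those not compared missed the minimum. Gkn2, a gastrokine, was at 99.9, 493, 305 and 655 CPM in members against 1651, 2593, 2251 and 2248. Agr2, an endoplasmic reticulum protein of mucus-secreting cells, gave 1, 37, 0 and 57 UMIs in members, or 0.51, 3.58, 0 and 4.42 CPM, against 73.6, 133, 21.8 and 43.0 CPM in the other cells. The trefoil peptide Tff1 gave 1, 18, 1 and 20 UMIs in members, against 27.4, 64.3, 114 and 72.4 CPM in the other cells, and Tff3 gave 1 UMI in all members together. Rbp4, the plasma retinol carrier, was at 62.2, 107, 54.3 and 78.9 CPM against 388, 523, 178 and 207.

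The other leading lower genes were of several kinds. Spp1, the secreted protein osteopontin, was at 17.8, 17.5, 16.8 and 42.7 CPM against 413, 399, 134 and 312. Hmga2, a chromatin protein of embryonic and tumour cells, was at 6.12, 13.3, 3.74 and 8.68 CPM against 85.6, 75.3, 39.3 and 41.6. Dcpp1, a secreted salivary-type protein, was at 10.2, 88.1, 10.5 and 209 CPM against 441, 578, 835 and 857, and differed most between portions. Mcpt8, Lce3f, Igfbp4, Cd177, Pcdh7, Fbln2, Gap43 and Mmp13 were the remainder, each from 0 to 132 UMIs in the members of a library. In at least 1 library each of these was compared only through its level in the other cells. Of 12 genes of alveolar transitional states, Itga2 and Ndrg1 were at least 2-fold lower in all 4 libraries and none was higher, and Cldn4 had ratios of 0.05, -0.43, 0.16 and -0.02.

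Markers of other cell types mostly gave few UMIs in members, whose selection excluded Ptprc, Cdh5 and Col1a2. Of the 16 immune genes 2 reached the minimum, of 12 endothelial genes 3, of 10 fibroblast and mural genes 2, and of 6 mesothelial genes 1. The immune genes summed to 81.0, 14.9, 134 and 9.22 CPM in members against 202, 22.0, 207 and 15.9 in the other cells, with Ptprc at 0 by selection. The endothelial genes summed to 40.8, 58.9, 32.9 and 37.2 CPM, against 7524 to 8057 CPM in the endothelial cells. The mesothelial genes summed to 53.0, 34.2, 34.8 and 14.6 CPM against 12.5, 27.3, 24.8 and 27.2, nearly all of it Msln, and the mesothelial regulator Wt1 was at 0 in the members of every library. Of 2 ciliated and 4 club cell genes with enough UMIs none was past 2-fold in all 4 libraries. The fibroblast and mural genes summed to 34.7, 117, 197 and 73.8 CPM against 81.1, 101, 82.6 and 102 in the other cells, mostly Dcn and Acta2, and 76.3% of the Acta2 UMIs in the third library came from 1 cell.

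Within the members, AT1 and AT2 genes varied in opposite directions along the marker rate. From the band of 4 to under 8 to that of 16 and over per 10000, Ager went from 1168, 1735, 1417 and 1374 CPM to 6024, 5602, 4690 and 4225 CPM. Hopx went from 170, 269, 256 and 225 CPM to 1556, 1230, 1392 and 931 CPM, and Cav1 from 7.66, 20.9, 19.7 and 14.5 to 201, 148, 183 and 126. Sftpc went the other way, from 66011, 69258, 45250 and 50481 CPM to 19277, 24475, 5219 and 16707 CPM. In each library the middle band of 8 to under 16 lay between for these 4 genes. The lowest band held 49, 422, 50 and 459 members. Its AT2 list summed to 90305, 91584, 61628 and 66586.5 CPM, against 82929, 83087, 92656 and 92779 in the other epithelial cells. In that band both this sum and Sftpc were above the other cells in the vehicle libraries and below them in those labelled tamoxifen. Lyz2, a lysozyme of type 2 cells and macrophages, went from 3327, 2961, 636 and 1256 CPM to 139, 298, 90.9 and 438. Cebpa went from 129, 96.4, 86.9 and 93.9 CPM to 31.0, 34.5, 31.7 and 34.2, while Nkx2-1 went from 378, 295, 384 and 303 to 524, 398, 445 and 402. The highest band held 25.8%, 19.2%, 36.8% and 23.7% of members, and its cells were the shallowest, with median UMIs of 14420, 9745.5, 12655.5 and 9448.5 against 17362, 14201, 23169.5 and 13978 in the lowest. Depth and the rate thus moved together, and the part of depth was not tested.

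**Figure D3:**
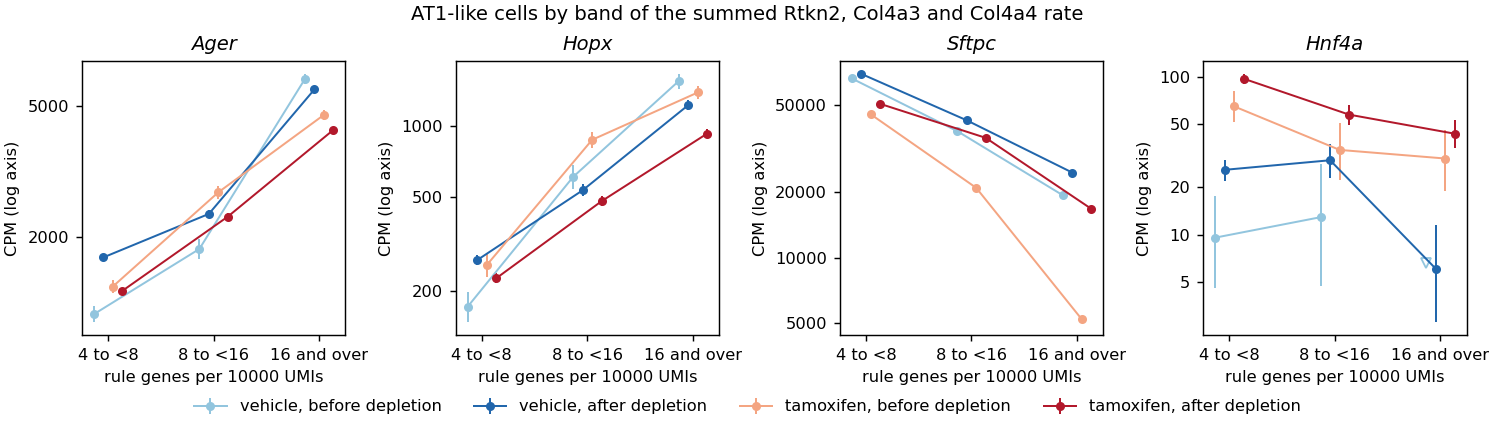
Summed CPM (log axes that differ between panels) of Ager, Hopx, Sftpc and Hnf4a in AT1-like cells by band of the rule's marker rate, with exact Poisson 95% intervals, 1 line per library. Ager and Hopx climb and Sftpc falls along the bands in all 4 libraries, and the open triangle marks 0 Hnf4a UMIs, drawn at the level that 3 counts would give.

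Cell by cell, the summed AT1 list and AT2 list, each cell thinned to 2000 UMIs, had Spearman coefficients of -0.36, -0.46, -0.47 and -0.31 over 97, 707, 125 and 936 cells. The points share a library, the same thinned total and the free RNA of that library, so the values are descriptions. Median thinned UMIs of the AT1 list were 15, 15, 19 and 16, and of the AT2 list 75, 76, 20 and 43.5, with the latter ranging from 0 to 734. Of 4434 genes, those whose levels were most like the AT1 list across cells were Cryab, a small heat shock protein, Clic3, Ahnak, S100a6 and Sparc, with mean correlations over the libraries from 0.38 to 0.40. Those most opposed were Sftpa1, Slc34a2, Sftpb, Rapgef5 and Arhgef38, from -0.39 to -0.31.

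The comparison of tamoxifen with vehicle asked what differs in AT1-like cells when CreERT2 is activated in mice with floxed Hnf4a. Hnf4a (chr2:163506808-163572910, plus strand), a nuclear receptor of liver and gut, went against the label. Members held 16, 245, 126 and 990 Hnf4a UMIs, or 8.15 (4.66 to 13.2), 23.7 (20.8 to 26.9), 47.1 (39.3 to 56.1) and 76.7 (72.0 to 81.6) CPM. The libraries labelled tamoxifen were higher, with log2 ratios of 2.39 (1.78 to 3.38) before and 1.65 (1.49 to 1.90) after depletion. The other epithelial cells stood at 63.1, 61.0, 91.3 and 85.8 CPM, with ratios of 0.53 and 0.49. Counts from the 3′ end do not show which exons a transcript carries, so they do not report deletion, and directions below are for the libraries as labelled.

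Hnf4a was seen in 8, 106, 29 and 290 members, and without the cell that held most of its UMIs in each library the ratios were 2.69 and 1.67. After thinning it was seen in 1.03%, 3.54%, 5.60% and 10.7% of members and in 0%, 0%, 0% and 1.85% of endothelial cells, where 0 of 91, 45 and 94 cells allow up to 3.3%, 6.67% and 3.19%. At that thinned depth the shares of vehicle members, from 1 and 25 cells, are within these limits, which rest on few endothelial cells. Unthinned, the member shares were 8.25%, 14.99%, 23.2% and 31.0%, against 0%, 0%, 0% and 3.70% of endothelial cells, which were shallower. The unthinned shares of vehicle members lie above the same limits. The level of Hnf4a was higher with tamoxifen within every band of the marker rate. In the band of 4 to under 8 the ratios were 2.64 and 1.88, in that of 8 to under 16 they were 1.35 (0.09 to 2.99) and 0.94, and at 16 and over it was 2.65 after depletion. In that last band no Hnf4a UMI was seen in vehicle cells before depletion, which allows up to 6.63 CPM, against 30.3 CPM with tamoxifen. Cre, the transcript of the recombinase allele, gave 3, 35, 11 and 36 UMIs in members, or 1.53, 3.39, 4.12 and 2.79 CPM, against 2.63, 3.33, 3.32 and 3.26 CPM in the other epithelial cells, so no difference was detectable at this depth.

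Few genes were past 2-fold in both treatment pairs, and no AT1 list gene was among them. Of 10089 genes compared in members, 72 were at least 2-fold higher with tamoxifen in both pairs, or 0.714%, and 72 lower, or 0.714%. In the other epithelial cells 56 of 14635 genes were higher, or 0.383%, and 190 lower, or 1.3%. The 23 AT1 list genes were not among those called in members. At such low shares a list of this size can hold none, so nothing is read from that count. The list's medians were 0.01 and -0.13, where all genes had 0.04 and 0.02. Ager had ratios of 0.12 and -0.17, Hopx of 0.30 and -0.13, and Aqp5 of -0.39 and -0.74. Spock2, a testican proteoglycan, was the farthest from 0 before depletion, at -1.76, with -0.80 after it, and Cyp2b10 had -1.23 and -0.22. For Aqp5 the other epithelial cells gave ratios of -0.47 and -0.66. None of the 18 basement membrane genes was past 2-fold in both pairs, which the shares over all genes also allow.

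AT2 genes as a list stood lower with tamoxifen in members, but unevenly. Sftpb hardly differed, with ratios of 0.05 and -0.002. Abca3 had -0.48 before and -0.11 after depletion, and Lpcat1 -0.35 and -0.05. The medians of the 16 genes were -0.88 and -0.62, against -0.10 and 0.10 in the other epithelial cells, and 3 genes lay below by 2-fold or more in each pair. Lyz2 was at 2019, 2211, 334 and 1010 CPM over the 4 libraries, with ratios of -2.59 and -1.13. Napsa, an aspartic protease that processes surfactant proteins, was at 715, 729, 292 and 338 CPM, with ratios of -1.29 and -1.11. Hc, complement component 5, was at 103, 103, 25.8 and 43.4 CPM, with ratios of -1.95 and -1.23. In each of these 3 genes, picked as past 2-fold in both pairs, both tamoxifen libraries were below both vehicle libraries. Sftpc had ratios of -0.81 and -0.50 in members and 0.23 and 0.21 in the other cells, and within the bands Sftpc was lower throughout, at -0.54 and -0.46 in the lowest, -0.86 and -0.27 in the middle and -1.88 and -0.55 in the highest. Lyz2 was lower in the lowest band, at -2.39 and -1.24, and in the middle, at -3.65 and -0.45, but in the highest it was at -0.61 before and 0.55 (0.39 to 0.72) after depletion. The members of the tamoxifen libraries also had higher marker rates, as given above, and what that shift contributes to the list's medians was not tested. The difference between members and other cells was not tested either.

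Genes named by size in the treatment comparison were a mixed set. Fmo2, a lung flavin monooxygenase, was at 60.1, 60.0, 296 and 317 CPM, with ratios of 2.28 and 2.38 in members and 1.14 and 1.21 in the other cells. Tmeff2, a transmembrane follistatin-like protein, was at 32.1, 35.0, 229 and 185 CPM, with ratios of 2.79 and 2.37, and of -0.07 and 0.10 in the other cells. Pir, an iron-binding nuclear protein, was at 18.9, 28.3, 128 and 142 CPM. The treatments do not overlap in any of the 3 genes, which were named for being at least 2-fold apart in both pairs. Tmeff2 UMIs came from 9 and 74 members with vehicle and 50 and 362 with tamoxifen.

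Apob, the structural protein of lipoproteins, was at 12.7, 6.0, 69.6 and 53.3 CPM, with ratios of 2.36 and 2.96 against -0.41 and -0.44 in the other cells. Of the 25 vehicle UMIs before depletion, 96.0% came from 1 cell, and without the richest cell of each library the ratios were 5.22 and 3.14. Cym, the stomach protease chymosin, was at 1.53, 2.52, 34.8 and 266 CPM, with ratios of 3.82 (2.92 to 6.81) and 6.25, and its UMIs came from 1, 5, 11 and 67 cells. Cpe, which trims prohormones, had ratios of 2.55 and 2.73 and stayed below the other cells in each library. Tfpi, an inhibitor of coagulation, gave 0 and 2 UMIs with vehicle and 20 and 86 with tamoxifen, and Pnliprp1, a lipase-like protein, 0 and 23 against 94 and 285. None of these last 4 genes was seen in more than 77 members of a library.

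Of the lower genes, Smim6, a small membrane protein, was at 34.7, 47.7, 0.75 and 2.32 CPM, from 33 and 240 cells against 2 and 27. Its ratios after depletion were -3.87 in members and -3.39 in the other cells, and before depletion -3.42 in the other cells. Slc2a3, the glucose transporter GLUT3, was at 52.0, 75.2, 5.24 and 21.2 CPM, with ratios of -3.09 and -1.78, and of -0.44 and -0.87 in the other cells. Pla2g7, a phospholipase that degrades platelet-activating factor, was at 27.0, 25.2, 4.12 and 5.04 CPM. Each, named by the same size rule, was lower in both tamoxifen libraries than in either vehicle library. Greb1, Magi2, Psca and Kctd16 had ratios after depletion from -2.74 to -2.18. Grip1 had -1.81 and -2.36, and the former was -0.56 without 1 cell that held 79.2% of the gene's UMIs in the vehicle library before depletion.

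**Figure D4:**
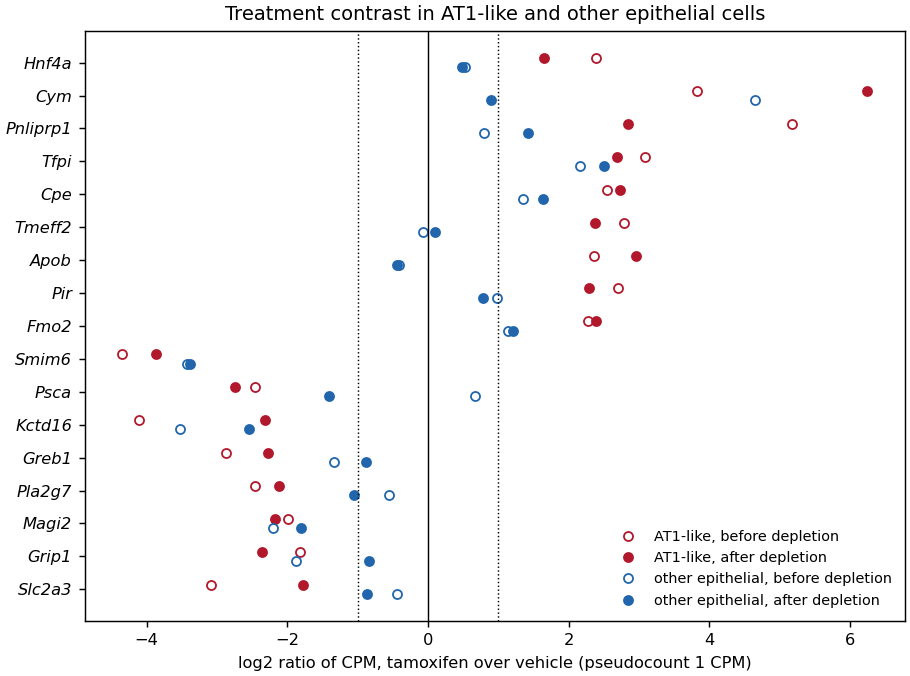
Log2 ratio of CPM, tamoxifen over vehicle (x axis, pseudocount 1 CPM), for Hnf4a and the genes named by size in AT1-like cells, beside the other epithelial cells. Open circles are the pair before and filled circles the pair after depletion, and Apob lies right of 0 in AT1-like cells and left of it in the other cells.

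Genes of the G2 and M phases leaned lower with tamoxifen in the members after depletion. The medians of 11 genes were -0.45 before and -1.22 after depletion, against 0.15 and 0.40 in the other epithelial cells, and the first was 0.15 when cells were weighted equally. Cdk1, the mitotic kinase, was the 1 gene past 2-fold in both pairs, at 27.0, 16.0, 8.61 and 5.81 CPM. Mki67 was at 33.1, 17.3, 25.4 and 7.52 CPM, but 60% of its UMIs in the first library came from 1 cell, and without the richest cell of each library its ratio before depletion went from -0.37 to 0.22. After thinning, at least 2 UMIs of the list were held by 1, 20, 3 and 11 members, or 1.03%, 2.83%, 2.40% and 1.18%. Their intervals overlap between treatments in both pairs, at 0.03 to 5.61 and 0.50 to 6.85 before and 1.74 to 4.34 and 0.59 to 2.09 after depletion, and unthinned shares were 20.6%, 14.1%, 16.8% and 9.62%. Endothelial cells, which can cycle themselves, gave 6.59%, 6.67%, 3.19% and 9.26%.

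Secretory genes of the airway went both ways between treatments. Scgb3a2, a secretoglobin, was at 115, 54.4, 372 and 181 CPM, from 3, 54, 27 and 164 members, with ratios of 1.69 and 1.72. Cbr2, a carbonyl reductase, was at 284, 214, 26.6 and 91.4 CPM, with ratios of -3.37 and -1.22. Among transitional genes Nupr1, a stress-induced chromatin protein, was at 180, 263, 71.5 and 94.5 CPM. Lgals4, a gut galectin, gave 21 and 98 UMIs against 10 and 52, with levels of 10.7 and 9.49 CPM against 3.74 and 4.03. In Cbr2, Nupr1 and Lgals4, each past 2-fold in both pairs, both tamoxifen libraries were below both vehicle libraries.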

How the data were processed

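Single-cell 3′ gene expression was measured in 4 libraries. The authors deposited unnormalized UMI counts per gene and barcode, written by Cell Ranger 7.0.1 per the file headers, while the submitters' processing notes name Cell Ranger 7.2.0 and mm10. The annotation release and the use of intronic reads and strand are not given in the sources used here. A further allele in the labels is not reported here. Of 32289 feature identifiers, 32158 matched GENCODE M21, which supplied coordinates.

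Members were found by the rule given in the report, in each library on its own. UMIs were summed over cells and given as CPM. Ratios are log2 with a pseudocount of 1 CPM. A gene was compared between classes with at least 20 member UMIs, or as many expected at the other cells' level, in every library, and between treatments with at least 20 in the larger library of each pair. It was called when at least 2-fold apart the same way in all 4 libraries or both pairs. Intervals are exact Poisson for CPM, Clopper-Pearson for shares and conditional binomial for ratios (without the pseudocount), at 95%, for counting error only. A count of 0 allows 3 counts. Doublets were scored with Scrublet in scanpy 1.11.5, and cells were left in whatever their score.

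Named are the rule's genes, Hnf4a, Cre, list genes, the 20 highest and 15 lowest genes by class and the 8 highest and 8 lowest by treatment, by the ratio nearest 0, without mitochondrial, ribosomal, immunoglobulin, sex-linked and unnamed genes. Members and lists were chosen with earlier results of these data known. The size rules were run on simulated counts, drawn from the pooled profile of the other epithelial cells with planted changes. Those counts hold sampling error only, so the run says nothing of variation between cells, animals or libraries. TMM factors came from edgeR 4.0.16 in R 4.3.3.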

Additional observations from a re-analysis of the deposited data

Results flagged for a closer look

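Apob had log2 ratios of tamoxifen over vehicle of 2.36 before and 2.96 after depletion in AT1-like cells and of -0.41 and -0.44 in the other epithelial cells, so the classes lie on opposite sides of 0 in both pairs. The G2/M list lay on opposite sides too, with medians of -0.45 and -1.22 in AT1-like cells and 0.15 and 0.40 in the other epithelial cells. The YAP, TAZ and TEAD list did so by small amounts, with medians of 0.089 and 0.0045 against -0.37 and -0.015. The differences between the classes were not tested. With equal weight for each cell the G2/M median before depletion was 0.15 in AT1-like cells, and the medians of the YAP, TAZ and TEAD list were -0.11 and -0.03, and the other epithelial cells were not recomputed so.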

How the results depend on the processing

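No paired analysis was possible because each group holds 1 library. Among the main results only the Hnf4a ratios have a sign, and they kept it under every alternative run. The genes named by size kept theirs too, which their selection at 2-fold or more in the same cells favours. Several list medians changed sign, most often with equal weight for each cell. There the G2/M median went from 0.43 to -0.55 between classes in the first library and from -0.45 to 0.15 between treatments before depletion. With at least 8 marker UMIs per 10000, the member shares were 5.50%, 4.48%, 8.13% and 6.78%, genes higher in members numbered 249, genes lower with tamoxifen 41, and the Hnf4a ratio after depletion was 1.32. The share in the last library was 12.5% with at least 5000 UMIs per barcode and 12.3% with at most 10% mitochondrial UMIs, where the Hnf4a ratio after depletion was 1.46.

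Counts of genes moved most with the size rule. Genes higher and lower in members numbered 164 and 102 as reported, 480 and 240 at 1.5-fold, 26 and 15 at 4-fold, 84 and 48 with a pseudocount of 10 CPM, and 101 and 35 with at least 100 UMIs. With no minimum 159 were lower. Genes higher and lower with tamoxifen numbered 72 each as reported, 265 and 250 at 1.5-fold, 11 and 5 at 4-fold, 29 and 18 with a pseudocount of 10 CPM, 30 and 22 with at least 100 UMIs, and 188 and 249 with both portions summed, where 1 pair replaces 2. With no minimum 125 were lower. The pseudocount of 10 CPM gave Hnf4a ratios of 1.65 and 1.36. Without thinning, Ager was seen in 90.7%, 96.5%, 96.0% and 94.1% of members.

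The 51 genes named by size, chosen at 2-fold or more in the same cells, kept their sign throughout. In 9 instances they came under 2-fold, mostly with the pseudocount of 10 CPM. Cpe was at 0.84 with at least 8 marker UMIs per 10000. Grip1 was at -0.56 without the cell richest in it, which was added once the data were known. The causes were not tested. Of 140 alternative values of the main results, 104 kept to their counting error or count range. The 2 libraries before depletion held 97 and 125 members, which limits every value there.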

Other observations

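Among the genes called lower with tamoxifen in AT1-like cells, 1 was also a leading gene of the members against the other cells. Adamtsl1, a secreted matrix protein related to the ADAMTS proteases, was at 90.2, 49.6, 32.9 and 19.1 CPM over the 4 libraries in the order used above, with log2 ratios of -1.43 and -1.33, and of -1.57 and -1.02 in the other epithelial cells. Lce3f, a cornified envelope gene that was lower in members than in the other cells, was among the genes called higher with tamoxifen. It gave 1, 31, 29 and 132 UMIs, and 72.4% of those in the third library came from 1 cell. Mmp13, a collagenase named among the genes lower in members, gave 0 and 5 UMIs in vehicle members and 14 and 93 in tamoxifen members. All 14 came from 1 cell, and without the richest cell of each library the log2 ratio before depletion was 0. All 3 genes were singled out for the treatment contrast after their values were seen.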
